A study of Mus musculus with 5 samples.

Results

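Neutrophils of the mouse heart were taken as the cells rich in S100a8 and S100a9, and 156 were found among 38337 retained cells. A barcode counted as a neutrophil when at most 10% of its unique molecular identifiers (UMIs, each standing for 1 captured RNA molecule) came from mitochondrial genes and when S100a8 and S100a9 together had at least 10 UMIs. It also needed at least 1 UMI of Csf3r, Retnlg or Cxcr2, at most 1 UMI over the C1q genes of macrophages, at most 1 over the Cd3 genes of T cells, and 0 over Cdh5 and Pdgfra, the endothelial and fibroblast genes. Control replicates 1 and 2 gave 25 and 44 neutrophils, and 13, 52 and 22 came from disease replicates 3, 4 and 5. The cells were chosen by these measured values, so the levels of the genes in the rule are given as a description.

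Neutrophils are short-lived granulocytes that leave the bone marrow, patrol the blood and enter injured tissue along chemokine gradients. They carry preformed granules, an oxidase that makes reactive oxygen, and S100a8 and S100a9, which pair to form the calcium-binding alarmin calprotectin. In the inflamed heart they are known as early arrivals that release interleukin-1 beta and chemokines for other leukocytes.

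All mice of the study lacked Pdcd1, the gene of the inhibitory receptor PD-1. Control hearts were Ctla4+/+Pdcd1-/- (4 mice) and disease hearts were Ctla4+/-Pdcd1-/- (10 mice), the second with a single working copy of Ctla4, a further inhibitory receptor, as a model of myocarditis caused by immune checkpoint inhibitors. Hearts were pooled, digested with enzymes and sorted for DRAQ5+DAPI- cells, a gate for live nucleated cells that does not select leukocytes, and 2 control and 3 disease libraries were made with the 10x Genomics 5-prime V1.1 chemistry. The deposited genotype and gate labels of single libraries name differing Pdcd genes and DRAQ dyes (Pdcd2 or Pdcd3, for example), so the groups follow the study's design text, which gives 1 genotype for each numbered library. Age, sex, day of collection and which mice went into which library are not given in the sources used here, so a batch that runs with the groups cannot be told apart from genotype. Nothing says that the libraries of a group come from separate animals, so p-values measure the spread between libraries, which may be technical.

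The libraries held 6465 to 11358 barcodes and 24991704 to 55053988 UMIs. A barcode sequence occurred in more than 1 library for 1208 of 46099 distinct sequences, and 0 of the neutrophil barcodes were neutrophils in more than 1 library. Neutrophils were shallow: the median cell held 2072 and 1975.5 UMIs in the controls and 1978, 1787 and 1608 in disease, against 3383.5 to 4682 in all other retained cells. Mitochondrial genes gave the median neutrophil 4.16% and 3.68% of its UMIs in control libraries, against 5.06%, 1.29% and 2.93% in disease. Summed over cells, the neutrophils of a library gave 27899 UMIs (disease replicate 3) to 113735 UMIs (disease replicate 4). Levels are given in CPM, a gene's UMIs summed over the neutrophils of a library, divided by all UMIs of those cells and multiplied by 1000000. Values of the 2 controls always come in the order of replicates 1 and 2, and those of the 3 disease libraries in the order of replicates 3, 4 and 5.

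Neutrophil genes that the rule had not used were also high in the chosen cells. The ranking below takes genes because they are high there, so it is a description and no test of the label. Ranked by their smallest ratio over the 5 libraries to all other cells, among genes with at least 200 CPM in neutrophils of every library, the first 20 genes included S100a9, Retnlg, S100a8, Stfa2l1, Asprv1, Cxcr2, Wfdc21, Slpi, Trem1, Il1f9, Mmp9, Trem3, Slfn4, Lcn2, Clec4d, Slc7a11, Hp, Mcemp1 and Hdc. The smallest ratio went from 381 for S100a9 to 79.5 for Hdc. Of these genes, S100a9, S100a8, Retnlg and Cxcr2 belong to the rule.

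Among the genes outside it, Mmp9, the gelatinase stored in tertiary granules, had 1127 and 1091 CPM in the controls and 1147, 1011 and 1067 in disease. Trem1, an activating receptor of myeloid cells, had 1859 and 1706 in the controls and 1219, 1697 and 1039 in disease. Hdc, the enzyme that makes histamine, had 1841 and 1452 in the controls and 1219, 1820 and 2019 in disease. The level of Mmp9 was thus almost the same in every library, and the groups overlapped for Hdc but not for Trem1, at -0.39 on the log2 scale (SE 0.35, adjusted p = 0.636 by edgeR's quasi-likelihood test).

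**Figure D1:**
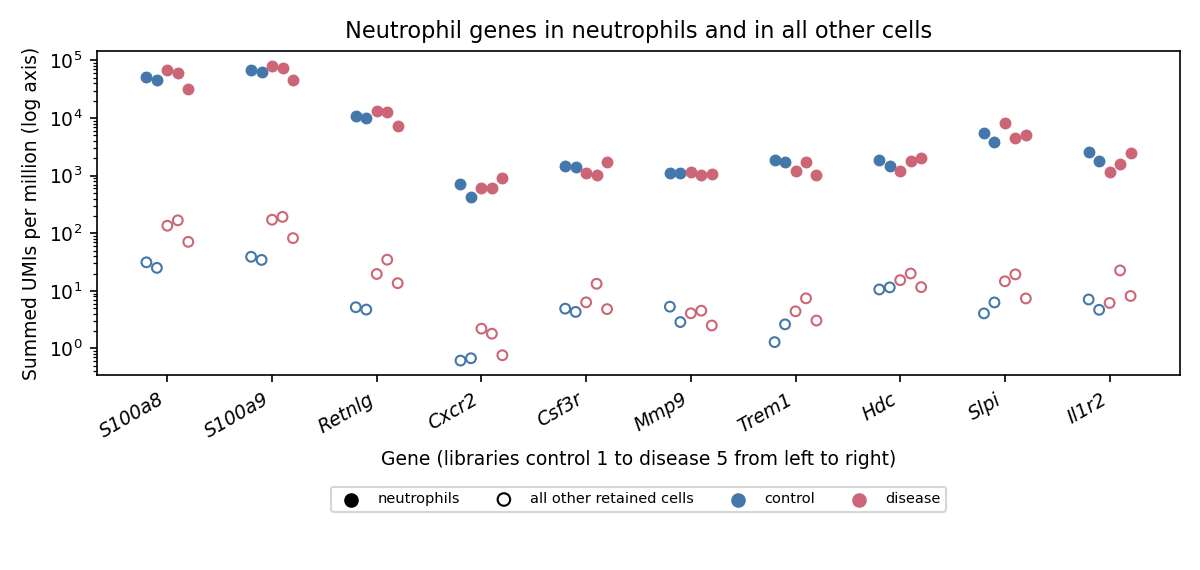
Summed CPM (log axis) of 10 neutrophil genes in the neutrophils (filled points) and in all other retained cells (open points) of each library, control in blue and disease in red. S100a8, S100a9, Retnlg, Cxcr2 and Csf3r belong to the rule, so the choice of cells raises their gap. In each library the filled points lie far above the open ones. For Mmp9, a gene outside the rule, they stood at 1127 against 5.32 CPM in control replicate 1.

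Ly6g, the gene of the surface protein most used to stain mouse neutrophils, was sparse, with 7 and 6 UMIs in the controls and 2, 15 and 0 in disease. It was seen in 10.3% of the neutrophils. Of the genes of the rule, Csf3r, the receptor of granulocyte colony-stimulating factor, was seen in 87.8% and Retnlg, a resistin-like protein, in 92.9%, shares that the choice of cells raises. The primary granule genes of neutrophil precursors, Mpo, Elane, Ctsg and Ms4a3, were at 0 of 323927 neutrophil UMIs, which allows up to 9.26 CPM of each, and Prtn3 had 3 UMIs. Epx and Prg2 of eosinophils, and Mcpt8, Cpa3 and Ms4a2 of basophils and mast cells, were also at 0, while the other genes of that list, Ccr3 and Gata2, had 3 UMIs and 1 UMI.

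Neutrophils also held some RNA of other cells' markers. The 10 macrophage markers summed to 572 to 939 CPM over the libraries, against 5249 to 10762 in all other cells. The 9 T and natural killer markers summed to 0 to 169. The rule limits the C1q genes of macrophages and the Cd3 genes of T cells, so the choice of cells itself lowers these sums. They are thus no independent test of the label. The 7 fibroblast markers summed to 1756 to 3061, led by Gsn and Dcn, with Pdgfra at 0 by the rule. The 8 dendritic markers, which include MHC class II genes, summed to 251 to 7579, with disease replicate 4 the highest, and the 8 monocyte markers to 466 to 1864. The 6 endothelial markers summed to 530 to 1266, led by Fabp4, with Cdh5 at 0 by the rule. The 8 cardiomyocyte markers summed to 37.6 to 193 against 182 to 589 in all other cells, the 5 B cell markers to 35.8 to 281 against 130 to 319, and the 7 erythroid and platelet markers to 35.8 to 132 against 829 to 2385. In disease replicate 4 the cardiomyocyte sum was 193 in neutrophils and 182 in other cells, and the B cell sum 281 and 319. The part of RNA from other cells in the neutrophil results was not tested.

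The threshold on S100a8 and S100a9 fell in a sparse range. The neutrophils had a median of 204 and 177 such UMIs in the controls and of 303, 251 and 112 in disease. Only 8 of 156 cells had fewer than 20, and 6 further cells with 5 to 9 UMIs met the rest of the rule. Within single cells the 2 genes took 0.658% to 35.7% of all UMIs, with a median of 9.87%.

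Cells that met the rule were a small share of the heart cells in both genotypes, and no difference beyond the spread between libraries was found. Of the retained control cells, 0.270% were neutrophils in replicate 1 (Wilson interval at 95%, 0.183 to 0.398%) and 0.787% in replicate 2 (0.587 to 1.05%). The disease values were 0.223% for replicate 3 (0.131 to 0.382%), 0.522% for replicate 4 (0.398 to 0.684%) and 0.286% for replicate 5 (0.189 to 0.433%). The groups overlapped, since control replicate 2 was the highest and disease replicate 3 the lowest, and control replicate 1 lay between disease replicates 3 and 5. The mean share was 0.528% in control and 0.344% in disease, a difference of -0.185 percentage points (exact permutation of the labels of the 5 libraries, two-sided p = 0.6, n = 2 and 3, where 0.1 is the smallest p possible). Without control replicate 2 the difference was 0.0741 points in the other direction. The limits on C1q, Cd3, Cdh5 and Pdgfra left out 15 and 9 further control cells and 23, 65 and 20 disease cells. These cells met the rest of the rule. They outnumbered the cells kept in disease replicates 3 and 4 (13 and 52). In the controls (25 and 44) and disease replicate 5 (22) they were fewer. The shares and their difference thus depend on these limits, and shares with these cells counted were not tested.

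Set against leukocytes rather than all cells, again no difference beyond the spread between libraries was found. Neutrophils with a Ptprc UMI (78.8% to 92.3% of the neutrophils of a library) were 0.930% and 4.95% of all cells with one (Ptprc encodes the pan-leukocyte protein CD45) in the controls, and 1.34%, 0.808% and 1.08% in disease. Control replicate 2 stood above the other libraries, which lay between 0.808 and 1.34%, and the difference of the means was -1.86 percentage points (exact permutation p = 0.3). The number of Ptprc cells behind these shares ran from 788 in control replicate 2 to 5074 in disease replicate 4. These intervals cover counting error only.

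**Figure D2:**
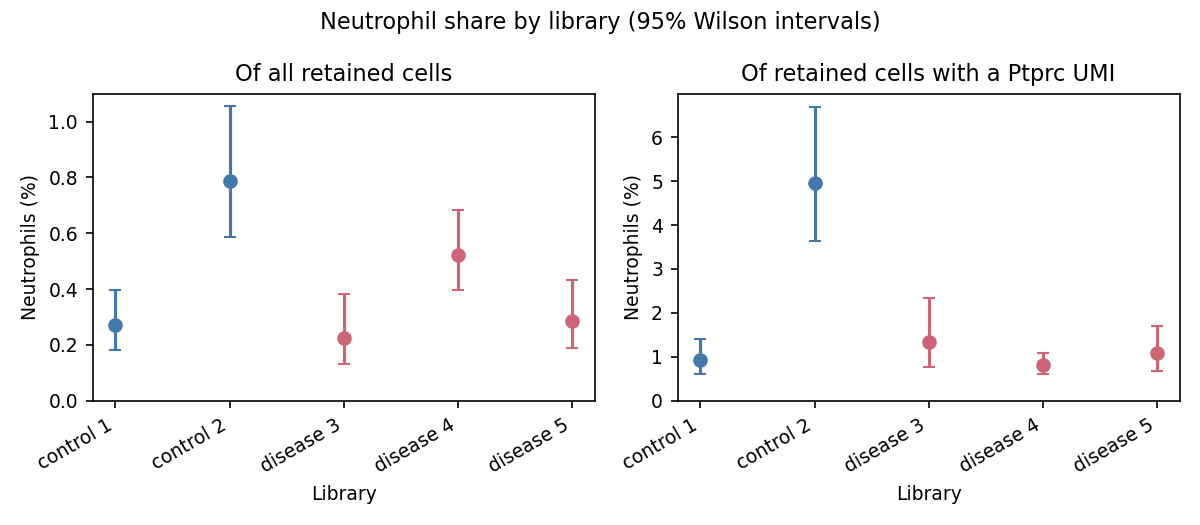
Neutrophils as a percentage of all retained cells (left) and of retained cells with a Ptprc UMI (right) in each library, with 95% Wilson intervals, control in blue and disease in red. On the left the groups overlap, and on the right control replicate 2, at 4.95%, lies apart from the other 4 libraries.

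Genes were compared between genotypes in the 4 libraries with at least 20 neutrophils, which leaves out disease replicate 3 with its 13 cells. Of 1041 genes tested, 4 fell in disease neutrophils (adjusted p under 0.05, edgeR's quasi-likelihood test with Benjamini-Hochberg adjustment; 0.384% of the genes tested) and 0 rose, while DESeq2 called 10, of which 1 was higher. At an unadjusted p under 0.05 there were 98 lower and 67 higher genes. The count was 0 without either control replicate, 16 without disease replicate 4 and 129 (74 higher) without disease replicate 5. The 4 genes were Pfn1, Eif1, Tpt1 and Scand1. The control and disease libraries did not overlap for any of the 4 genes, over all 5 libraries, which also held for 30.3% of all genes tested (45.1% over the 4 libraries of the fit), so a gap between groups is not particular to them.

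The 4 genes serve general cell functions. The 250 bases before their start sites (RefSeq, build GRCm38.p6) are shown because these genes moved together, with that of S100a8, a leading gene of the neutrophils, for contrast. Capitals mark the GC box GGGCGG on either strand (CCGCCC on the reverse) in the first 4 sequences and the TATA box TATAAA (reverse TTTATA) in the last.
Pfn1: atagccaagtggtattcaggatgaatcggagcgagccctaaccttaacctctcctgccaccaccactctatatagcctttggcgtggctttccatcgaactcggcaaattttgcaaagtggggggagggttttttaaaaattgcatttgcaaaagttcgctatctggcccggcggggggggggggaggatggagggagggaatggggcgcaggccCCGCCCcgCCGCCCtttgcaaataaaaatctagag
Eif1: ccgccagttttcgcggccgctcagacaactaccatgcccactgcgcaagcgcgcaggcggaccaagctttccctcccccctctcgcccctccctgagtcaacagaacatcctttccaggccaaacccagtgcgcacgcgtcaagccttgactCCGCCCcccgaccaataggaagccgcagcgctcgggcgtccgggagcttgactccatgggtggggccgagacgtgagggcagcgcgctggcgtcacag
Tpt1: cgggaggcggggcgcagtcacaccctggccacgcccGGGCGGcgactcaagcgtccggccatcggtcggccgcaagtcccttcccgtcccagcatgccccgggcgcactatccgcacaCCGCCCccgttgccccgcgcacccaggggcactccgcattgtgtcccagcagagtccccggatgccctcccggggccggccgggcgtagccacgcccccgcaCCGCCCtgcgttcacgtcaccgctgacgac
Scand1: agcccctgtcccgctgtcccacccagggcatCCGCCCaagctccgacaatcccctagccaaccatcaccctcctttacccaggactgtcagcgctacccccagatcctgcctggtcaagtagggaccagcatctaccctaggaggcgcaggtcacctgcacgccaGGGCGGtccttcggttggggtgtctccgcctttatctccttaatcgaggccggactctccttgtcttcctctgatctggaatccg
S100a8: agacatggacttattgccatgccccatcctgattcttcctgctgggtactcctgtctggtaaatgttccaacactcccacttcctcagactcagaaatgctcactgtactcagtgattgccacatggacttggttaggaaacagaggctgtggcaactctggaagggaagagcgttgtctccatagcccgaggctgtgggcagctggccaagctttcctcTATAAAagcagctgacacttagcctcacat
The Pfn1 stretch is chr11:70654651-70654900 on the minus strand, Eif1 is chr11:100319699-100319948 on the plus strand, and Tpt1 is chr14:75845006-75845255 on the plus strand. Scand1 is chr2:156312705-156312954 on the minus strand and S100a8 is chr3:90668821-90669070 on the plus strand. All 4 genes that fell held at least 1 GC box (2, 1, 3 and 2 in the order shown) and no TATA box, while S100a8 held a TATA box 30 bases before its start and no GC box. A GC box occurs in 32.9% and a TATA box in 12.97% of the 27025 RefSeq stretches of this length, and these matches are a description, not evidence of factor binding. The GC content was 54.4% for Pfn1, 66.8% for Eif1, 75.6% for Tpt1, 61.6% for Scand1 and 50.8% for S100a8, where the median over all stretches was 52.0%.

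Pfn1 (ENSMUSG00000018293) encodes profilin, which feeds actin monomers to growing filaments. It had 116 and 160 UMIs in the controls and 4, 16 and 9 in disease, that is, 2179 and 1695 CPM against 143, 141 and 260. Every disease library lay far below both control libraries. The log2 fold change was -3.45 (SE 0.39, adjusted p = 0.0170).

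Eif1 (ENSMUSG00000035530) encodes a translation initiation factor that helps to choose the start codon. It had 4169 and 4079 CPM in the controls and 1362, 413 and 923 in disease. The lowest control value was above the highest disease value, and disease replicate 3, which the fit leaves out, was the highest of its group. The log2 fold change was -2.80 (SE 0.36, adjusted p = 0.0228).

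Tpt1 (ENSMUSG00000060126) encodes an abundant protein tied to growth and translation. It had 2761 and 2024 CPM in the controls and 538, 536 and 606 in disease, so the 3 disease libraries were close together. The log2 fold change was -2.13 (SE 0.31, adjusted p = 0.0399).

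Scand1 (ENSMUSG00000046229), a small SCAN-domain nuclear protein, had 21 and 23 UMIs in the controls and 0 in each disease library. Summed over a group's libraries, with 3 counts as the floor for the disease libraries, it was at least 17.5-fold lower in disease (adjusted p = 0.0425). Pfn1, Eif1 and Tpt1 have near-identical copies elsewhere in the genome, so how reads were shared among the copies is uncertain.

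The same 4 genes also fell in macrophages and monocyte-rule cells of the disease libraries, 2 classes taken without any cell that had a Csf3r, Retnlg or Cxcr2 UMI. In macrophages, with at least 5 C1q UMIs, Pfn1 had 2291 and 1538 CPM in the controls and 126, 130 and 151 in disease, with a log2 fold change of -3.68 over the 4 libraries of the neutrophil fit (edgeR adjusted p = 0.00483). Over the same libraries the macrophage log2 fold changes were -2.97 for Eif1, -2.72 for Tpt1 and -4.81 for Scand1 (edgeR adjusted p = 0.00478, 0.00483 and 0.00478). In monocyte-rule cells, taken by Ly6c2, Ccr2 or Plac8 together with Lyz2 or Csf1r, and fitted over all 5 libraries, they were -3.98 for Pfn1, -2.68 for Eif1, -2.74 for Tpt1 and -4.77 for Scand1 (edgeR adjusted p = 0.00229, 0.0309, 0.00413 and 0.00388). That class also held dendritic RNA, with H2-Aa at a mean of 11739 CPM. How many of all genes these macrophage and monocyte-rule fits called is not given here. Whether calls for all 4 genes stand out in those classes was not tested.

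The direct test of a difference between classes passed for none of these genes. It fits both classes of the 4 libraries in 1 model with a joint scaling, so its values need not equal the separate fold changes subtracted. The neutrophil value minus that of macrophages was 0.37 for Pfn1 (interval of 2 standard errors each side -0.96 to 1.69), 0.29 for Eif1 (-0.96 to 1.54) and 0.75 for Tpt1 (-0.53 to 2.03) on the log2 scale, each with an adjusted p of 1 by edgeR. For Scand1 it was -7.33 (-18.11 to 3.45), also with an adjusted p of 1, a fitted value that depends on the 0 UMIs of the disease neutrophils. These intervals leave room for differences of more than 2-fold. In all other retained cells, the controls had 1360 and 839 CPM of Pfn1 and the disease libraries 68.2, 87.7 and 82.5. The low level in disease was thus also measured in the other cells of the same libraries.

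**Figure D3:**
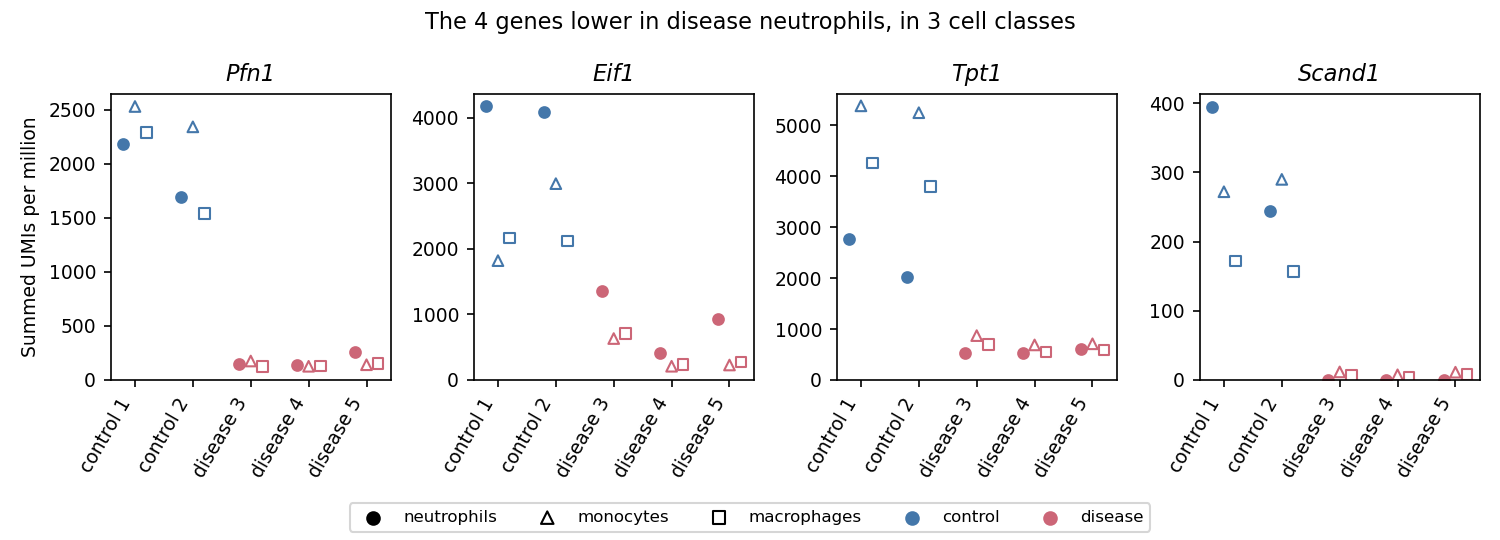
Summed CPM (linear axis from 0) of Pfn1, Eif1, Tpt1 and Scand1 in neutrophils (filled circles), monocyte-rule cells (triangles) and macrophages (squares) of each library, control in blue and disease in red. All 3 classes sit high in the 2 control libraries and low in the 3 disease libraries.

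A further 9 genes missed the threshold narrowly, with adjusted p-values of 0.0565 to 0.0566. They were Cox8a, Nfkbia, H2afj, Creg1, Cox5b, AW112010, Itm2b, Fth1 and H2-D1, and 8 of them had lower values in disease. Fth1, the heavy chain of the iron store ferritin, had 33261 and 29783 CPM in the controls and 7348, 3359 and 10761 in disease, with -2.30 (SE 0.43) as the log2 fold change. Nfkbia, the inhibitor that NF-kappaB induces to end its own signal, had 1164 and 1483 in the controls and 789, 229 and 404 in disease. Fth1, which has near-identical copies in the genome, and Nfkbia both had higher values in each control library than in each disease library. In the macrophages of the same 4 libraries all 8 of these genes were called lower too, from -5.44 for H2afj to -1.80 for Creg1, with -2.46 for Fth1 (edgeR adjusted p = 0.00965) and -2.36 for Nfkbia (adjusted p = 0.00789). With the macrophages of all 5 libraries 6 of them were called, and Cox8a (edgeR adjusted p = 0.106) and Nfkbia (edgeR adjusted p = 0.0720) were not. The share of all genes called in the macrophage fits is not given here, so these counts are not set against it.

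The exception was AW112010, a transcript induced in stimulated immune cells, with 1 and 0 UMIs in the controls and 0, 61 and 6 in disease. The fitted log2 fold change, 5.53 (SE 1.03), rests on 1 control UMI, and the fit leaves out disease replicate 3, which had 0. In all other cells it stood at 507 and 347 CPM in the controls and 421, 1481 and 672 in disease, so disease replicate 4 was the highest library there too.

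No list gene was called in neutrophils in edgeR's fit as reported. Over 26 lists without the genes of the rule, 121 of 290 distinct genes were tested and 0 passed by edgeR, with 5 higher and 11 lower at an unadjusted p under 0.05 (13.2%, beside 15.9% of all 1041 genes), while DESeq2 called Nfkbia and H2-D1. Both were also called with RLE scaling, with the GC trend removed and without neutrophils over 4000 UMIs. With every gene of at least 1 count, 33 of 10295 genes were called, among them 4 of 10 secondary and tertiary granule genes (list median 3.38). Most UMIs of Ltf, Camp and Ngp on this list came from 1 cell of disease replicate 4, described below. Without disease replicate 5, which leaves replicate 4 as the only disease library, the list median was 3.42. Over all 1041 genes the median log2 fold change was 0.00, with 523 genes above 0 and 518 below.

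Several granule genes were held mostly by 1 cell. Lcn2, the iron-scavenging lipocalin of secondary granules, had 32 and 76 UMIs in the controls and 21, 238 and 19 in disease, and was seen in 46.8% of neutrophils. Mmp8, the neutrophil collagenase, had 12 and 12 UMIs in the controls and 2, 38 and 4 in disease. Ltf (lactoferrin), Camp (cathelicidin) and Ngp (neutrophilic granule protein) were nearly confined to a single cell of disease replicate 4. That cell held 61 of 61 Ltf UMIs, 106 of 108 Camp UMIs and 186 of 199 Ngp UMIs, with 132 of 386 Lcn2, 24 of 68 Mmp8 and 14 of 20 Cd177 UMIs.

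Of its 6629 UMIs, 7.74% came from Ltf, Camp, Ngp, Lcn2, Chil3 and Mmp8, and 35.7% from S100a8 and S100a9, the highest share of any neutrophil. The median neutrophil had 0.0508% of its UMIs in these granule genes, and 63 of 156 cells had none. The granule levels of disease replicate 4 thus rest largely on 1 cell of 52. Of 10 secondary and tertiary granule genes, 4 were tested, 3 with a positive log2 fold change, with a median of 0.40 (-0.43 to 3.42 when 1 library was left out).

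No difference between genotypes beyond the spread was found in the share of neutrophils with granule RNA. After each cell was thinned to 500 UMIs by a random draw, at least 2 granule UMIs were found in 4.00% and 20.5% of neutrophils in the controls and in 7.69%, 23.1% and 9.09% in disease. No cell was lost to thinning. The groups overlapped, and the difference of the means was 1.06 percentage points (exact permutation p = 1.0). As the expectation over all draws of 500 UMIs the shares were 7.25% and 11.8% in control and 8.94%, 16.5% and 8.33% in disease, a difference of 1.74 points. The share of cells with 2 such UMIs rests on Ltf, Camp, Ngp, Lcn2, Chil3 and Mmp8. Without thinning the shares were 36.0% and 40.9% in control and 53.8%, 46.2% and 27.3% in disease. In macrophages the thinned shares were 0 to 0.186%. In monocyte-rule cells they were 0% and 11.8% in control and 4.55%, 5.88% and 0% in disease, so that of control replicate 2 (2 of 17 cells) lay above the neutrophils of 3 libraries.

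A different cell of disease replicate 4 carried RNA of antigen-presenting cells. It had 9485 UMIs, the most of any neutrophil, and held 354 of 621 Cd74 UMIs, 155 of 235 H2-Aa UMIs and 76 of 81 Cxcl9 UMIs, genes of major histocompatibility complex (MHC) class II presentation and an interferon-induced T cell chemokine. It also held 7 of 7 Ccr2 UMIs and 20 of 29 Cybb UMIs, and 4.27% of its UMIs came from S100a8 and S100a9. Cd74 stood at 714 and 254 CPM in the control neutrophils and at 108, 4757 and 433 in disease, and H2-Aa at 300 and 53.0 against 71.7, 1811 and 173. The high level of disease replicate 4 is thus mostly that of 1 cell. Scrublet, a doublet caller, marked 3 of 156 neutrophils, 1 in control replicate 1 and 2 in disease replicate 4. The 2 marked cells of disease replicate 4 had 5437 and 6807 UMIs, so the cell rich in Cd74 and the cell rich in granule RNA were not marked.

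**Figure D4:**
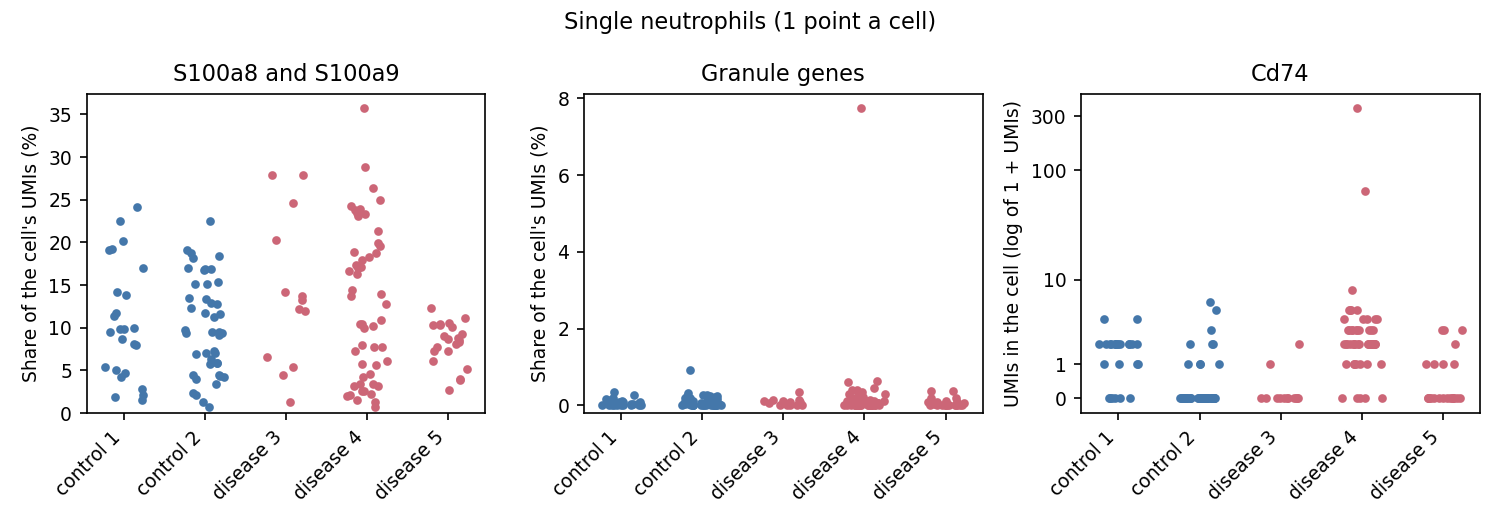
Single neutrophils by library (1 point a cell): the share of UMIs from S100a8 and S100a9 (left), the share from 6 granule genes (middle) and Cd74 UMIs (right, on a log scale of 1 + UMIs). In disease replicate 4 a cell with 7.74% granule UMIs and another with 354 Cd74 UMIs (the next has 66) stand apart from the others.

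Among the chemokine and cytokine genes, Il1b and Cxcl2 were high in neutrophils of both genotypes. Il1b, the pyrogenic cytokine processed by the inflammasome, had 2798 and 2013 CPM in the controls and 1505, 1873 and 4299 in disease. Cxcl2, a ligand of Cxcr2 that recruits more neutrophils, had 3719 and 5806 in the controls and 3692, 4080 and 11049 in disease. Disease replicate 5 was highest for both genes and the groups overlapped, with log2 fold changes of 0.24 (SE 0.36, adjusted p = 0.809) for Il1b and 0.53 (SE 0.42, adjusted p = 0.580) for Cxcl2 by edgeR.

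Ccl4, a chemokine for monocytes and T cells, had 4338 and 5255 CPM in the controls and 1541, 3464 and 2885 in disease. Its groups did not overlap, but the value of -0.65 (SE 0.28) on the log2 scale did not pass (edgeR adjusted p = 0.303). Ccl6, a chemokine of myeloid cells, had 3268 and 3284 in the controls and 6416, 4959 and 4731 in disease, again with no overlap and no call (0.50 on the log2 scale, SE 0.25, edgeR adjusted p = 0.372). Of 15 cytokine and chemokine genes 8 were tested, 7 had a positive log2 fold change, and the median was 0.49 (-0.10 to 0.52 when 1 library was left out). Il6 was at 0 in every library but disease replicate 4, where 2 cells held 6 UMIs.

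The levels of Il1b and Cxcl2 were those of cells that had been digested for sorting, and genes that respond to digestion are listed beside them. Atf3, a stress-induced transcription factor, had 1953 and 2861 CPM in the controls and 358, 589 and 1414 in disease. Junb, of the AP-1 family, had 1897 and 3602 in the controls and 717, 914 and 1846 in disease. Both had higher values in control, and of 13 such genes 10 were tested, 8 with a negative log2 fold change, with a median of -0.60 (-1.26 to 0.04 when 1 library was left out) and 0 called (4 at an unadjusted p under 0.05, edgeR, beside 15.9% of all genes). Their part in the cytokine levels was not tested.

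The chemokine receptors Cxcr2 and Cxcr4 overlapped between the genotypes. Cxcr2, the receptor for Cxcl1 and Cxcl2 and a gene of the rule, had 714 and 424 CPM in the controls and 609, 607 and 923 in disease. Cxcr4, which retains neutrophils in the marrow and rises as they age, had 545 and 572 against 215, 563 and 375. For both receptors at least 1 disease value lay between the control values. Of 15 migration genes 12 were tested, 6 with a positive and 6 with a negative log2 fold change, and the median was 0.01 (-0.13 to 0.31 when 1 library was left out).

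Growth factor receptors and survival genes gave no call either. Csf3r had 1484 and 1399 CPM in the controls and 1111, 1046 and 1731 in disease, and Mcl1, the survival factor on which neutrophils depend, had 1409 and 1642 against 1255, 1407 and 1558. Of 11 such genes, with Csf3r of the rule among them, 7 were tested, with a median log2 fold change of -0.12 (-0.41 to 0.08 when 1 library was left out).

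Of the oxidase genes, Cybb was sparse and Rac2 was measured well. Cybb, the catalytic subunit, had only 1 and 0 UMIs in the controls and 0, 26 and 2 in disease, and was seen in 4.49% of neutrophils, while macrophages held a mean of 596 CPM. Rac2, the small GTPase that switches the oxidase on, had 939 and 996 CPM in the controls and 1219, 1486 and 1991 in disease, with 0.75 (SE 0.29) on the log2 scale, which did not pass (edgeR adjusted p = 0.280). Of 12 oxidase and degranulation genes 10 were tested, 5 positive and 5 negative.

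In the fit as reported edgeR called no interferon-response gene of the lists in neutrophils, while DESeq2 called H2-D1, described with the interferon gamma targets. Isg15, a ubiquitin-like protein induced by type I interferon, had 1521 and 678 CPM in the controls and 968, 1758 and 1067 in disease, and was seen in 51.9% of neutrophils. Slfn4, a Schlafen family gene, had 563 and 339 against 251, 308 and 375. The groups overlapped for both. Of 30 type I genes 11 were tested, with a median log2 fold change of 0.09 (-0.71 to 0.84 when 1 library was left out). In cells thinned to 500 UMIs, at least 2 UMIs of the type I list were found in 68.0% and 52.3% of neutrophils in control and in 53.8%, 50.0% and 50.0% in disease, a difference of -8.85 percentage points (exact permutation p = 0.2). That is 1 random draw, and the direction turned elsewhere: as the expectation over all draws the shares were 64.1% and 46.1% in control and 60.7%, 58.4% and 48.0% in disease, a difference of 0.596 points, and with mitochondrial UMIs at most 5% it was 8.76 points. All other retained cells had 53.3 to 59.2%.

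The 35 interferon gamma targets summed to 7818 to 13053 CPM in neutrophils and 7403 to 17817 in macrophages, and every neutrophil had a UMI of them. The list includes B2m, H2-K1 and H2-D1 of MHC class I presentation, and Acod1, which is also on the list of neutrophil genes. Acod1 gave 110 of 695 and 140 of 828 of these UMIs in the controls. In disease it gave 27 of 238, 171 of 1143 and 78 of 271. The sum is thus not a measure of an interferon gamma response alone. Some members were sparse: Cxcl10 had 0 UMIs in both controls and 0, 5 and 0 in disease, and Gbp2, a guanylate-binding protein, had 7 and 4 in the controls and 14, 45 and 3 in disease. Of 35 such genes 9 were tested, 3 positive and 6 negative, with a median log2 fold change of -0.01 (-0.92 to 1.25 when 1 library was left out). H2-D1, of MHC class I, had 5108 and 3009 CPM in the controls and 1434, 1345 and 1125 in disease, so that its groups did not overlap (-1.74 on the log2 scale, SE 0.33, edgeR adjusted p = 0.0566).

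The targets of the genotype itself were near 0 in neutrophils. Pdcd1 had 1 UMI in all and Ctla4 had 4, all in disease replicate 4. All mice lacked Pdcd1, so its count does not show whether neutrophils with the gene would express it. Cd274, which encodes the PD-1 ligand PD-L1, had 5 and 4 UMIs in the controls and 4, 9 and 8 in disease, too few for the fit. Siglecf, a marker of a neutrophil state described in injured hearts, had 1 UMI in all.

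No glucose-metabolism gene was called in the fit as reported by edgeR or DESeq2, and 0 of 7 tested had an unadjusted p under 0.05, beside 15.9% of all genes. Gapdh, a glycolytic enzyme, had 1258 and 1388 CPM in the controls and 2402, 2699 and 1702 in disease, with no overlap (log2 fold change 0.70, SE 0.34, edgeR adjusted p = 0.370), and near-identical copies make its count uncertain too. Slc2a3, a glucose transporter, had 300 and 339 against 394, 466 and 490. Of 13 hypoxia and glycolysis genes 7 were tested, all 7 had a positive log2 fold change, and the median was 0.61 (0.14 to 0.71 when 1 library was left out), beside 0.00 over all genes. The list summed to 3850 and 3719 CPM in control neutrophils and 5807, 6612 and 5077 in disease, and in macrophages to 3399 and 2673 against 3388, 6353 and 4720. For the remaining lists the median is followed by its range when 1 library was left out. It was -0.06 (-0.21 to 0.24) for further neutrophil genes, 20 of 25 tested, -0.04 (-0.50 to 0.24) for 5 of 11 NF-kappaB feedback genes and 0.00 (0.00 to 0.33) for 7 of 11 Fc and complement receptor genes. It was 0.30 (0.16 to 0.38) for 4 of 14 checkpoint genes, 0.29 (-0.10 to 0.51) for 3 of 8 genes of the Siglecf state and -0.21 (-0.67 to 0.11) for 7 of 17 clock and glucocorticoid genes. Of these lists the checkpoint genes alone kept the sign of their median whichever library was left out.

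A gene whose genotype difference was not the same in neutrophils and macrophages was Acod1, which encodes the enzyme that makes itaconate in activated myeloid cells. In neutrophils it had 110 and 140 UMIs in the controls and 27, 171 and 78 in disease, that is, 2066 and 1483 CPM against 968, 1503 and 2250. In macrophages it had 19.8 and 0 CPM in the controls and 3.31, 106 and 41.8 in disease. Neutrophils of both genotypes thus held far more Acod1 than macrophages, and their groups overlapped, while in macrophages disease replicates 4 and 5 were the highest libraries and disease replicate 3 lay between the controls.

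In Acod1 the log2 fold change was -0.01 (SE 0.30) in neutrophils and 2.73 (SE 1.01) in the macrophages of the same 4 libraries, where it did not pass on its own (edgeR adjusted p = 0.182). In the joint model of both classes, which has its own scaling, the difference was -3.15 (SE 0.65, adjusted p = 0.0106, edgeR's quasi-likelihood test of the class by genotype term with library as a block), the only one called among 8890 genes (0.0112%). The median difference over all genes was 0.25, so Acod1 lay 3.40 below it on the log2 scale. With all 5 libraries the difference was -2.72 (SE 0.53, edgeR adjusted p = 0.00205), 1 of 2 genes called among 9058 (0.0221%). Without control replicate 2, whose macrophages had 0 Acod1 UMIs, the difference was -2.23 with an adjusted p of 1, and with the 5 libraries less disease replicate 4 it was -1.51 with an adjusted p of 1. Without control replicate 1 it was -9.93 (SE 1.87), and -9.22 from the 5 libraries, but there the only control left had 0 Acod1 UMIs in macrophages, so the size is set by the fit and is no bound.

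**Figure D5:**
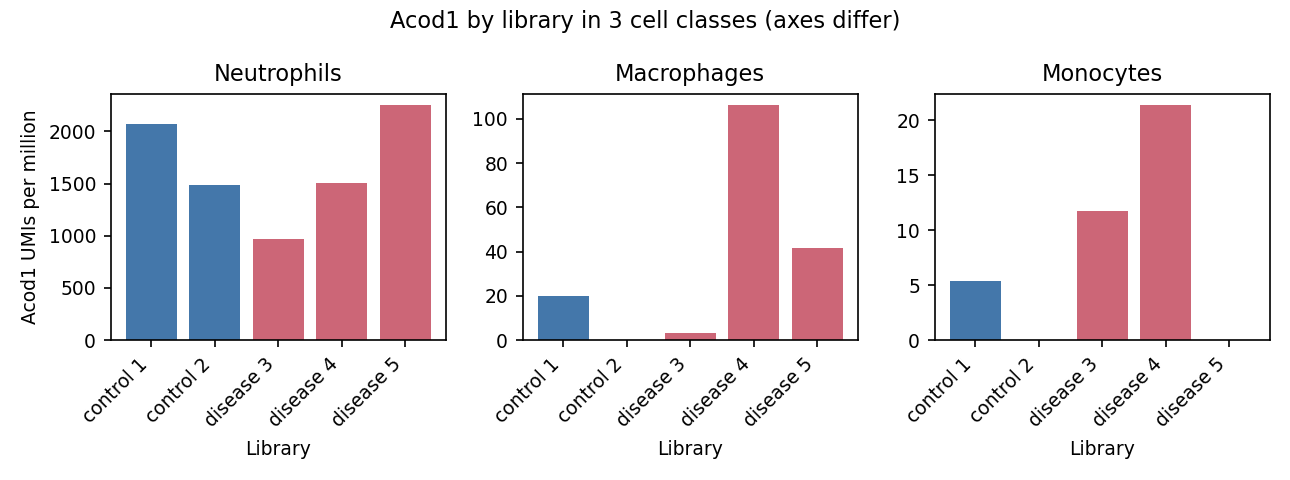
Acod1 CPM (bars from 0, axes differ between panels) in neutrophils, macrophages and monocyte-rule cells of each library, control in blue and disease in red. Neutrophils range from 968 to 2250 with the groups overlapping, and macrophages from 0 to 106.

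Against monocyte-rule cells the only call among 4376 genes (0.0229%) was Cxcl1, a neutrophil-attracting chemokine. Neutrophils had 5 and 11 Cxcl1 UMIs in the controls and 0, 12 and 3 in disease. Monocyte-rule cells had 99 and 0 in the controls and 1, 7 and 4 in disease, so control replicate 1 held nearly all of them. The difference was 4.51 on the log2 scale (SE 1.02, edgeR adjusted p = 0.0481) over the 3 libraries with at least 20 cells of each class, of which control replicate 1 was the only control. With all 5 libraries it was 2.44 with an adjusted p of 0.933, and without control replicate 1 it was -4.49, so the call rests on that library.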

How the data were processed

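Hearts of 4 control and 10 disease mice were measured in 5 single-cell libraries. The authors deposited unnormalised UMI counts for every gene in every barcode. The file headers name Cell Ranger 3.1.0, and the submitters' processing notes also name Seurat 3, mm10 and GRCh38. Counts were summed over the neutrophils of each library. edgeR 4.0.16 (TMM scaling, filterByExpr, quasi-likelihood test, Benjamini-Hochberg over all genes tested) compared genotypes in libraries with at least 20 neutrophils, and a class by genotype term with library as a block compared neutrophils with macrophages and monocyte-rule cells. The macrophage fit over the 4 libraries of the neutrophil fit was chosen after seeing the data. Shares of cells were compared with exact permutation tests of the library labels. No doublet call was used beyond the negative genes of the rule; removing Scrublet calls (scanpy 1.11.5) and DESeq2 1.42.0 were alternatives.

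Genes are named from the lists and, beyond them, the 12 largest rises and falls past 0.05 without overlap and with mean log2 CPM of 5 or more, and the 20 genes with the largest ratio to other cells. The members and lists were chosen with earlier results of these data known. Genes that missed the threshold narrowly, and genes held by single cells, were picked after their values were seen.

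The summed depth of 27899 to 113735 UMIs per library puts the floor of 3 counts at 26.4 to 108 CPM, for counting error only. Promoters are from the RefSeq table of build GRCm38.p6; all 5 genes matched. No protein sequence was used here. A few list genes are not reported here.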

Additional observations from a re-analysis of the deposited data

Results flagged for a closer look

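The genotype difference of Acod1, the itaconate-producing enzyme, was not the same in neutrophils and macrophages by a test of that difference itself: the neutrophil minus macrophage value was -3.15 on the log2 scale (edgeR adjusted p = 0.0106). It was negative in each alternative run and lost its call without control replicate 2 (-2.23) and, with all 5 libraries, without control replicate 2 (-1.29) and without disease replicate 4 (-1.51). Without control replicate 1 it was -9.93 (SE 1.87), and -9.22 from the 5 libraries, with a single control whose macrophages had 0 Acod1 UMIs.

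For Cxcl1, the neutrophil-attracting chemokine, the difference between neutrophils and monocyte-rule cells passed the test at 4.51 (edgeR adjusted p = 0.0481), with control replicate 1 as the only control. It rests on 99 UMIs in the monocyte-rule cells of that library: with all 5 libraries it was 2.44 (adjusted p = 0.933), and without control replicate 1 it was -4.49. It was called in 1 of 8 alternatives, so the data do not show a difference that holds across libraries.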

How the results depend on the processing

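No paired analysis was possible because the groups share no replicate numbers. The number of genes called in neutrophils was 4 in the fit as reported. It was 1 with an S100a8 and S100a9 minimum of 20 UMIs, 2 with the same number of neutrophils per library, 2 for genes with at least 10 UMIs in every library, 13 with RLE scaling, 33 (18 higher) with every gene of at least 1 count and 10 with DESeq2. Among alternatives chosen after seeing the data it was 10 with all 5 libraries, 16 without neutrophils over 4000 UMIs (9 of 156 cells) and 13 with the GC trend of the first 300 bases removed. Leaving out 1 library gave 0 to 129 calls (0 without either control, 16 without disease replicate 4, 129 without disease replicate 5); from the 5 libraries it gave 1 without either control, 4, 20 and 7 without disease replicates 3, 4 and 5, the first of which is the fit as reported. The difference from macrophages was called for 1 gene as reported, 6 with RLE scaling, 2 with all 5 libraries and 0 to 19 without 1 library. That from monocyte-rule cells was called for 1 gene, 3 with RLE scaling, 0 with every gene of at least 1 count, 0 with all 5 libraries (105 at an unadjusted p under 0.05, edgeR) and 1 to 5 without 1 library from those 5, where Cxcl1 reversed to -4.49 without control replicate 1. RLE scaling moved the median difference over all genes from 0.25 to 0.09 for macrophages and from -0.01 to 0.20 for monocyte-rule cells. The difference in neutrophil share was -0.185 points and -0.443 to 0.0741 without 1 library. The type I interferon share differed by -8.85 points, by 8.76 with mitochondrial UMIs at most 5%, by 0.596 as the expectation over all draws, and by -16.7 to -0.991 without 1 library. The granule share differed by 1.06 points, by -0.0495 without Scrublet calls, by -3.54 in cells thinned to 1000 UMIs and by -7.17 to 9.29 without 1 library. With mitochondrial UMIs at most 5%, control replicate 1 and disease replicates 3 and 5 held 17, 6 and 18 neutrophils. Those are under the minimum of 20 cells set for the gene fit. Leaving out a library left the monocyte fit of 3 libraries without residual degrees of freedom or without a control. These fits were not run. In the fits on 3 libraries the lone library of a group is assumed to vary like the other group. Over 1039 genes the fold changes had a Spearman correlation of -0.20 with the GC content of the first 300 bases, across genes, which are not independent replicates. The cause of these changes was not tested.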
